A study of Mus musculus with 16 samples.

Results

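The 2′-5′-oligoadenylate synthetase (OAS) family was followed through 6 genes, namely Oas1a, Oas1g, Oas2, Oas3, Oasl1 and Oasl2. They were chosen by name, each through its Ensembl identifier, and all 6 were found among the 32697 genes of the count table and passed the filter on low counts. RNA was sequenced in bulk in 16 libraries from YUMM1.7 tumours, a transplanted mouse melanoma line, grown in female mice to 200 to 350 mm3. By the series' account these were sorted cDC1s, a conventional dendritic cell subset that takes up tumour antigen and presents it to CD8 T cells. There were 4 genotype groups of 4 libraries. The Ikbkb set held floxed controls (IkbkbF/F, labelled IKKbFF) and mice with Ikbkb deleted (IkbkbΔXcr1, labelled IKKbdeltaXCR1). The Irf1 set held floxed controls (labelled IRF1FF) and mice with Irf1 deleted (labelled IRF1deltaXCR1). The deletions are named after Xcr1, a chemokine receptor gene of cDC1s, and because the notes on animals cover Ikbkb mice alone, Irf1 libraries were grouped by genotype label only. Neither mouse age nor the floxed exons are stated in the labels. The title of the series names an NF-kB and IRF1 axis in cDC1s. The comparisons ask whether each OAS gene differed between libraries labelled as deleted for Ikbkb or Irf1 and their floxed controls.

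OAS proteins are interferon-induced sensors of double-stranded RNA. On binding it, the active enzymes join ATP into 2′-5′-linked oligoadenylates (2-5A), a second messenger of the antiviral response. The genes are transcribed through the interferon-stimulated response element (ISRE), which is bound by the interferon-activated complex that holds IRF9 and by other IRF proteins, and in dendritic cells they are among the usual markers of exposure to interferon. Oas1a and Oas1g encode short active synthetases, and Oas2 and Oas3 encode longer ones with repeated synthetase units. Oasl1 encodes a synthetase-like protein without the enzyme activity that is known to repress translation of Irf7, and Oasl2 encodes a synthetase-like protein that keeps the activity.

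All 6 genes lie on chromosome 5 in the mouse build GRCm38, in 2 clusters. Oasl2 (ENSMUSG00000029561, chr5:114896936-114912234) and Oasl1 (ENSMUSG00000041827, chr5:114923240-114937915) are neighbours on the plus strand. Oas2 (ENSMUSG00000032690, chr5:120730333-120749853), Oas3 (ENSMUSG00000032661, chr5:120753098-120777661), Oas1g (ENSMUSG00000066861, chr5:120876142-120887613) and Oas1a (ENSMUSG00000052776, chr5:120896256-120907521) lie on the minus strand. Oas1a and Oas1g are near copies of each other: 57.6% of the 50-base windows in the exons of Oas1a, and 45.7% of those in Oas1g, occur in the exons of another gene, of which 1057 are shared between this pair. Reads from these windows cannot be assigned to a single gene, so the levels of Oas1a and Oas1g are uncertain to that degree. For the other 4 genes the share was at most 0.521%. Oasl1 overlaps the antisense gene Gm13822 by 38 exon bases, and the strand setting of the counting was not given in the sources used here.

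Because the 6 genes varied together over the libraries, the 100 bases around each start (80 before and 20 after) are shown for the 5 genes that RefSeq lists in its GRCm38.p6 table. Each is read along its own gene, 5′ to 3′, and capitals mark matches to the ISRE core (GAAA, any 2 bases, GAAA), searched on both strands.
Oas1a (chr5:120907506-120907605, minus strand): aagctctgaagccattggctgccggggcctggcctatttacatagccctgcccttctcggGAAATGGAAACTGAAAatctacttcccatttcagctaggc
Oas1g (chr5:120887594-120887693, minus strand): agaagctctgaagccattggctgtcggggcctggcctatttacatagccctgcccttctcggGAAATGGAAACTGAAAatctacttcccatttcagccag
Oas3 (chr5:120777640-120777739, minus strand): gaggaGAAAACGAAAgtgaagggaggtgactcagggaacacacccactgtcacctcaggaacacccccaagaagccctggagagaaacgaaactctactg
Oasl1 (chr5:114923160-114923259, plus strand): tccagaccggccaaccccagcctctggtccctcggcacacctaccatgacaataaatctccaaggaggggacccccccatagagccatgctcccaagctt
Oasl2 (chr5:114896854-114896953, plus strand): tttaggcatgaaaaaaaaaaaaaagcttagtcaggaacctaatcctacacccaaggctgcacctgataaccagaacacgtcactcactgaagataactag
Oas1a and Oas1g carried the same 16-base run of 2 overlapping matches, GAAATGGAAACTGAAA, from 20 to 5 bases before the start in Oas1a and from 18 to 3 bases before it in Oas1g. Oas3 had 1 match, 75 to 66 bases before its start. These letters were not in the 300-base windows of Oasl1 or Oasl2. Of 32851 promoters of that length, 3.44% held the ISRE core. The NF-kB letters (GGGA, any 4 bases, CC), present in 20.7% of the promoters, matched once, in Oasl1 at 13 to 4 bases before its start. A match is a description of the letters and no evidence of binding.

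The libraries held 16478671 to 27433818 counts and differed in their levels of cell type markers. Levels are given as CPM, counts scaled to a common library size after correction for library composition. The summed CPM of 12 cDC1 markers ran from 789 to 8505, and none of the 12 was at 0 in any library. The sums of 14 macrophage and monocyte markers and of 12 fibroblast and endothelial markers were each above the cDC1 sum in 15 of 16 libraries. Ikbkb control replicate 3 and the library labelled Ikbkb-deleted replicate 1 stood apart with cDC1 sums of 8312 and 8505, against at most 3696 in the others. Ikbkb itself measured 64.8 ± 37.4 CPM (mean ± SD, n = 4) in its controls and 37.4 ± 7.25 CPM in the deleted group, and the ranges overlapped. Irf1 measured 199 ± 61.9 CPM in its controls and 166 ± 90.5 CPM in the deleted group, where replicate 1 (299 CPM) was above every Irf1 control (highest 268 CPM). That library goes against its label on this measure, although counts over a whole gene need not show the loss of a floxed part. The libraries also held marker RNA of other cells, and how much of each gene's RNA came from cells with the deletion was not tested. All deleted groups are therefore called by their labels. Nothing in the labels says whether replicates came from separate animals, so a p-value here weighs a difference against the spread of libraries, which may be technical.

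Per kilobase of exon, and averaged over all 16 libraries, Oas1a was the most abundant of the family at 31.7 ± 22.1 CPM per kb (SD over libraries). Oasl1 followed at 23.1 ± 21.9 and Oasl2 at 16.9 ± 8.74 CPM per kb. Lower down were Oas1g at 6.03 ± 3.59, Oas3 at 3.38 ± 3.88 and Oas2 at 3.26 ± 3.79 CPM per kb. Neighbours in this order differed by less than the SD over libraries, except that Oasl2 was above Oas1g by more than either SD. Every gene varied strongly between libraries, by 7.25-fold in Oas1a (lowest to highest CPM) and by 30.9-fold in Oas3. In these bulk libraries fewer cells of a type and less RNA per cell cannot be told apart.

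Oas1a measured 36.7, 70.4, 191 and 82.6 CPM in Ikbkb control replicates 1 to 4. Libraries labelled Ikbkb-deleted held 33.4, 99.9, 41.8 and 43.3 CPM of it. The Irf1 controls gave 26.3, 62.1, 42.3 and 85.1 CPM, and the libraries labelled Irf1-deleted 49.8, 38.7, 26.9 and 26.9 CPM. Control replicate 3 of the Ikbkb set was the highest of all 16, and 3 of the 4 libraries labelled Ikbkb-deleted lay close together, below replicate 2 of that group. Group means fell in the order Ikbkb controls (95.1 ± 66.6 CPM), Ikbkb-deleted (54.6 ± 30.5), Irf1 controls (54.0 ± 25.4) and Irf1-deleted (35.6 ± 11.0), with overlap between every pair.

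Oas1g, the near copy of Oas1a, was lower throughout. Its levels were 12.0, 21.4, 32.0 and 20.2 CPM in Ikbkb controls, against 5.20, 27.9, 7.48 and 8.92 CPM in the libraries labelled Ikbkb-deleted. They were 4.17, 14.6, 10.2 and 22.8 CPM in Irf1 controls, against 13.3, 12.0, 6.12 and 7.51 CPM in those labelled Irf1-deleted. The same libraries were high as for Oas1a: Ikbkb control replicate 3, the Ikbkb-deleted replicate 2 and Irf1 control replicate 4. Group means were 21.4 ± 8.17, 12.4 ± 10.5, 13.0 ± 7.82 and 9.72 ± 3.44 CPM in Ikbkb controls, Ikbkb-deleted, Irf1 controls and Irf1-deleted, the order also used below. The CPM ratio of Oas1a to Oas1g stayed between 3.05 and 6.42 in the Ikbkb set and between 3.23 and 6.30 in the Irf1 set.

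Oas2 varied most of the family. Ikbkb controls held 0.266, 8.93, 31.3 and 15.7 CPM. Libraries labelled Ikbkb-deleted held 1.21, 14.1, 0 and 1.74 CPM, and the count of 0 allows a level of up to 0.159 CPM (3 counts, counting error only). The Irf1 controls held 4.09, 39.1, 21.0 and 61.9 CPM, which included the highest 2 levels of Oas2 in the study. The libraries labelled Irf1-deleted held 13.3, 5.70, 5.33 and 8.56 CPM. So 3 of 4 Irf1 controls were above every library labelled Irf1-deleted, while replicate 1 of those controls was below all of them. Group means were 14.0 ± 13.1, 4.27 ± 6.61, 31.5 ± 24.8 and 8.22 ± 3.67 CPM.

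Oas3, the largest synthetase of the family, stood at 11.9, 26.5, 121 and 24.0 CPM in Ikbkb controls, against 14.7, 33.1, 3.93 and 15.8 CPM in libraries labelled Ikbkb-deleted. Irf1 controls gave 9.47, 22.2, 14.2 and 31.3 CPM, against 25.6, 6.22, 12.8 and 9.69 CPM in those labelled Irf1-deleted. A single library, Ikbkb control replicate 3, was far above the next of the study (33.1 CPM), and the other 15 overlapped across groups. Group means were 45.9 ± 50.7, 16.9 ± 12.1, 19.3 ± 9.59 and 13.6 ± 8.48 CPM.

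Oasl1, the repressor of Irf7 translation, reached 34.5, 49.0, 258 and 57.5 CPM in Ikbkb controls. Among libraries labelled Ikbkb-deleted its levels split into a high pair and a low pair, at 94.6, 92.4, 20.7 and 23.9 CPM. The Irf1 controls gave 28.8, 54.7, 39.1 and 54.9 CPM and the libraries labelled Irf1-deleted 59.4, 34.3, 24.3 and 38.5 CPM. The Ikbkb-deleted replicate 1 was second of the 16 libraries for Oasl1 but only 13th for Oas1a and 15th for Oas1g and Oasl2. Group means were 99.7 ± 106, 57.9 ± 41.1, 44.4 ± 12.7 and 39.1 ± 14.8 CPM.

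Oasl2 stood at 57.2, 101, 218 and 103 CPM in Ikbkb controls, against 34.7, 85.2, 27.2 and 65.7 CPM in libraries labelled Ikbkb-deleted. Irf1 controls gave 78.1, 178, 147 and 175 CPM, against 171, 110.2, 100.2 and 67.4 CPM in those labelled Irf1-deleted. Only Ikbkb control replicate 1 fell inside the range of the libraries labelled Ikbkb-deleted, and the Irf1 controls and the libraries labelled Irf1-deleted overlapped. Group means were 119.8 ± 68.9, 53.2 ± 27.1, 145 ± 46.4 and 112 ± 43.4 CPM. Oas2 and Oasl2 were thus highest in the Irf1 controls and lowest in the Ikbkb-deleted group, whereas Oas1a, Oas1g, Oas3 and Oasl1 were highest in the Ikbkb controls and lowest in the Irf1-deleted group. Not a single pair of groups was free of overlap in any gene, over 6 pairs for each of the 6 genes.

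**Figure D1:**
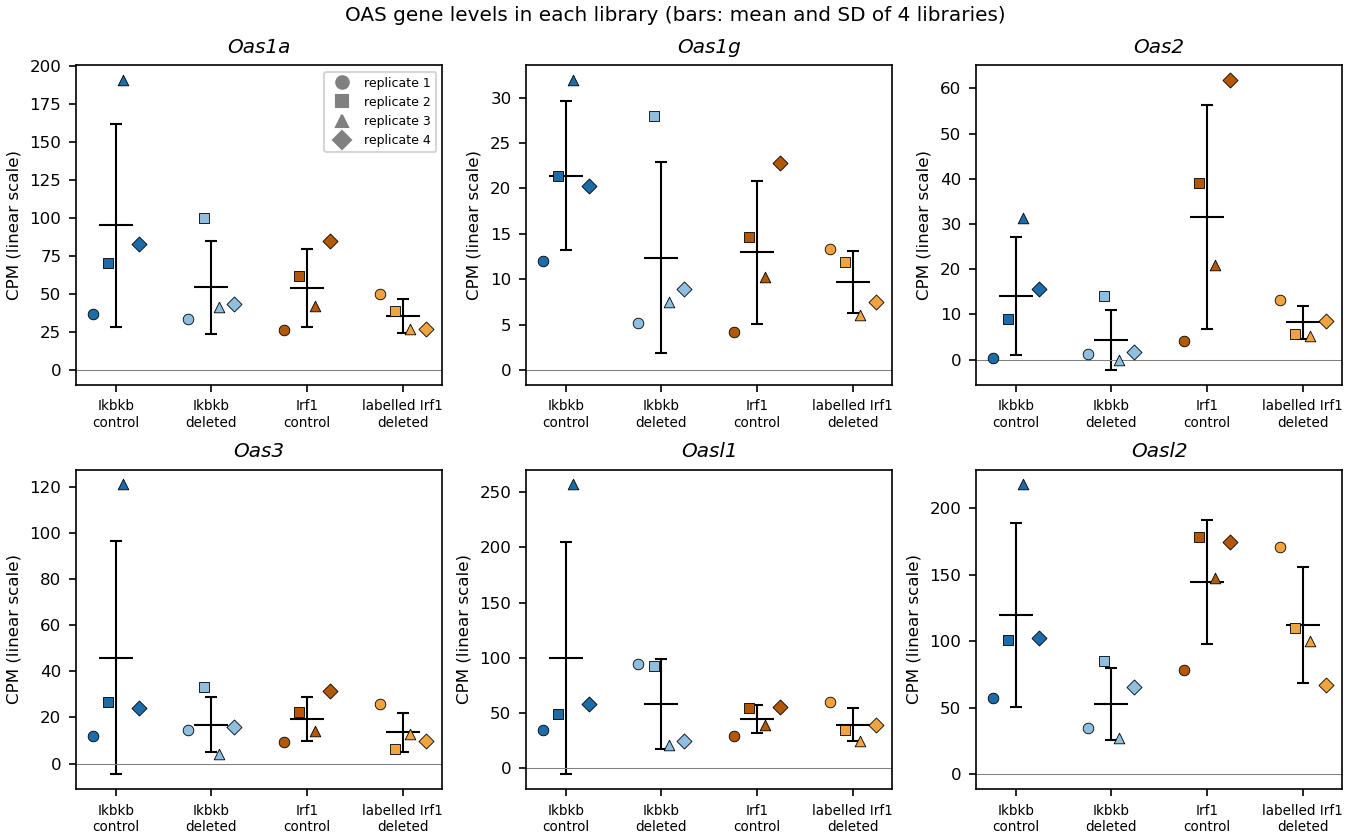
Each panel plots the CPM of 1 OAS gene (linear axis) in the 16 libraries, by genotype group, with symbols for the replicate number and bars for the mean and SD of 4 libraries. Ikbkb control replicate 3 (triangle) is the highest point for Oas1a, Oas1g, Oas3, Oasl1 and Oasl2, and Irf1 control replicate 4 (diamond) for Oas2.

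With Ikbkb deletion all 6 OAS genes had lower fitted levels than in the floxed controls, but none passed the test. None was called by edgeR's quasi-likelihood test at a Benjamini-Hochberg adjusted p of 0.05, and 0% of the 16040 genes tested were called in this comparison. DESeq2 and limma voom, which called 38 genes and 0 genes, did not call an OAS gene either. Oasl2 was nearest to the threshold, with a log2 fold change of -1.17 (SE 0.44, 95% interval -2.10 to -0.24, which is 0.444-fold) and an unadjusted p of 0.0165, but its adjusted p by edgeR was 0.988. It was the only OAS gene of 6 with an unadjusted p under 0.05, where 4.79% of all genes were. Oas3 had a log2 fold change of -1.44 (SE 0.71) and Oas2 one of -1.71 (SE 1.21). For Oas1a, Oas1g and Oasl1 the values were -0.80 (SE 0.48), -0.79 (SE 0.55) and -0.78 (SE 0.61). The adjusted p by edgeR was 1 for each of these 5 genes.

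The 6 fold changes had a median of -0.99 on the log2 scale against -0.02 over all genes tested, and 52.2% of all genes had a negative value. The 6 genes share libraries, so their common sign is not 6 separate observations. Ikbkb control replicate 3, the highest library for 5 of the 6 genes, carried much of it. Without that library the log2 fold changes were -0.22 for Oas1a, -0.54 for Oas1g, -0.97 for Oas2, -0.32 for Oas3, 0.29 for Oasl1 and -0.72 for Oasl2. Without the Ikbkb-deleted replicate 2, the highest of its group for Oas1a, Oas1g, Oas2, Oas3 and Oasl2, they ran the other way, to -1.27 for Oas1a, -1.58 for Oas1g, -3.84 for Oas2, -2.02 for Oas3, -1.12 for Oasl1 and -1.50 for Oasl2. Without the Ikbkb-deleted replicate 1, the other library with a cDC1 sum that stood apart, the values were -0.64 for Oas1a, -0.55 for Oas1g, -1.43 for Oas2, -1.40 for Oas3, -1.14 for Oasl1 and -1.03 for Oasl2. No OAS gene was called in any of these cases. Markers of several other cell types moved with this comparison as well: 18 of 18 T and NK cell markers (median -0.99), 7 of 7 tested B cell markers (-1.30), 7 of 8 plasmacytoid DC markers (-0.72) and 13 of 14 macrophage and monocyte markers (-0.50) had negative log2 fold changes. So had 6 of 7 tested cDC2 markers (-0.23), 9 of 12 fibroblast and endothelial markers (-0.28) and 2 of 3 tested melanoma cell markers (-1.15). Of the tested neutrophil markers 3 of 6 did (0.13). Of the cDC1 markers 5 of 12 did (0.07). No marker was called. Beyond fits with the T and NK cell or the cDC1 marker sum as a covariate, their part in the result was not tested. Libraries of both groups overlapped for all 6 genes, while 1.7% of all genes had no overlap.

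With Irf1 deletion the 6 OAS genes again had lower fitted levels in the deleted group, and again none passed the test. Neither edgeR, which called 0% of all genes, nor limma voom called any gene, and none of the 6 genes that DESeq2 called belonged to the family. The log2 fold change was -1.94 for Oas2 (SE 1.21, 95% interval -4.52 to 0.64), -0.60 for Oas1a (SE 0.48) and -0.51 for Oas3 (SE 0.70). It was -0.41 for Oas1g (SE 0.55), -0.37 for Oasl2 (SE 0.43) and -0.18 for Oasl1 (SE 0.61). By edgeR every adjusted p was 1. Without the Irf1-deleted replicate 1, whose Irf1 level went against its label, the values were -2.27 for Oas2, -0.81 for Oas1a, -1.01 for Oas3, -0.60 for Oas1g, -0.64 for Oasl2 and -0.45 for Oasl1, again with none called. Without Irf1 control replicate 4, the highest of its group for Oas1a, Oas1g, Oas2, Oas3 and Oasl1, they were -1.38 for Oas2, -0.29 for Oas1a, -0.17 for Oas3, 0.0047 for Oas1g, -0.26 for Oasl2 and -0.06 for Oasl1. Without the Irf1-deleted replicate 3 Oasl1 had -0.0090, and without replicate 4 of that group Oasl2 had -0.18. No OAS gene had an unadjusted p under 0.05, which 2.61% of all genes had, and the libraries overlapped for all 6, whereas 2.89% of all genes had no overlap. The median of the 6 values was -0.46 against -0.02 over all genes, of which 51.7% were negative. Negative values were also found for 17 of 18 T and NK cell markers (median -1.20), 14 of 14 macrophage and monocyte markers (-0.50), 6 of 8 plasmacytoid DC markers (-0.21), 3 of 7 tested B cell markers (0.46) and 4 of 12 cDC1 markers (0.14). The same held for 6 of 7 tested cDC2 markers (-0.52) and 10 of 12 fibroblast and endothelial markers (-0.15). It held for 2 of 3 tested melanoma cell markers (-0.54) and 2 of 6 tested neutrophil markers (0.20). No marker was called. Beyond fits with the T and NK cell or the cDC1 marker sum as a covariate, their part in the result was not tested. Values below 0 in both deletions were found for all 6 members and for 30.4% of all genes tested.

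**Figure D2:**
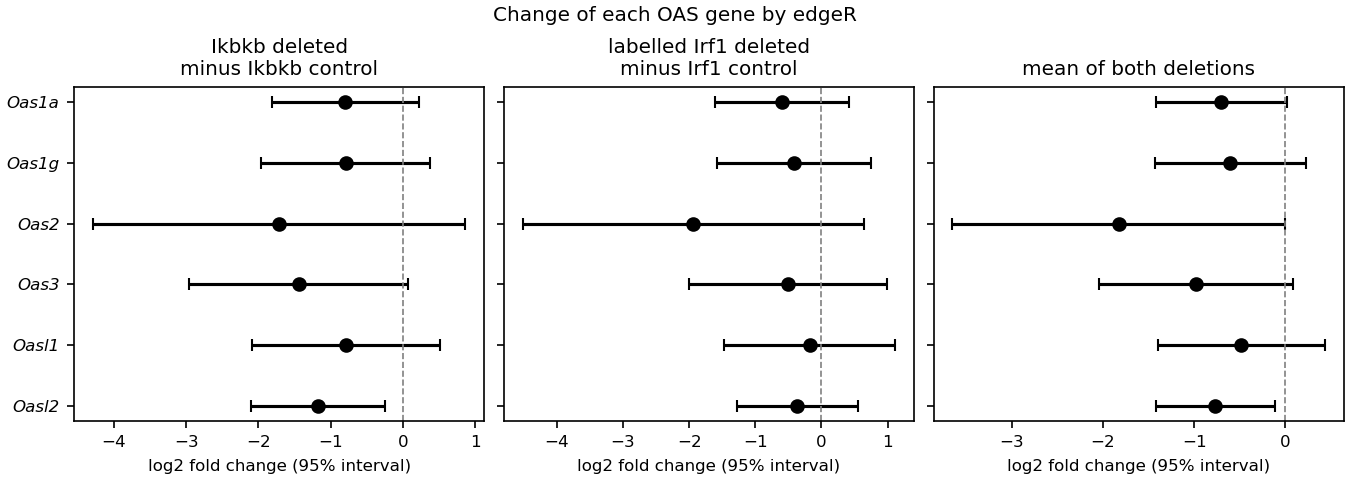
Points give the log2 fold change of each OAS gene by edgeR and bars its 95% interval, for Ikbkb deletion, for Irf1 deletion and for the mean of both. All points lie below 0, and the interval excludes 0 for Oasl2 in the first panel and for Oasl2 and Oas2 in the third, before adjustment over 16040 genes.

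Averaged over both deletions, 8 deleted against 8 control libraries, the log2 fold change was -0.77 for Oasl2 (SE 0.31, unadjusted p 0.0234) and -1.83 for Oas2 (SE 0.86, unadjusted p 0.0496), each with an edgeR adjusted p of 0.942. In this average too all 6 values were negative, as were 51.7% of all genes. For the other members they were -0.98 for Oas3 (SE 0.50), -0.70 for Oas1a (SE 0.34), -0.60 for Oas1g (SE 0.39) and -0.48 for Oasl1 (SE 0.43), none of them called. Unadjusted p-values under 0.05 were found for 2 of 6 members and for 5.25% of all genes, and again 0% of genes were called. A test of the difference between both deletions (Irf1 minus Ikbkb) called none of the 6 members and 0% of all genes by edgeR, against 12 genes by DESeq2. No member had an unadjusted p under 0.05 for it, which 2.84% of all genes had, and it was negative for Oas2 alone, where 46.5% of all genes were negative. That difference was widest for Oas3, at 0.94 on the log2 scale (SE 0.99, 95% interval -1.17 to 3.05), and for Oasl2, at 0.81 (SE 0.61, 95% interval -0.49 to 2.10). Its interval for every member held both 0 and differences larger than 1.5 on the log2 scale, so like and unlike responses to the deletions could not be told apart at this spread.

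The Irf1 set was then compared with the Ikbkb set, a comparison in which mouse line, handling and genotype cannot be told apart. Between the control groups edgeR called 12.6% of all genes and none of the 6 OAS genes. The log2 difference (Irf1 controls minus Ikbkb controls) was negative for Oas3 (-1.25), Oasl1 (-1.17), Oas1a (-0.82) and Oas1g (-0.72), and positive for Oas2 (1.17) and Oasl2 (0.27). Of all genes 50.2% were negative, and 28.3% had an unadjusted p under 0.05, which no member had. Between the deleted groups 8.58% of all genes were called and again no OAS gene. The closest was Oasl2, which was 2.11-fold higher in the libraries labelled Irf1-deleted than in those labelled Ikbkb-deleted, with a log2 difference of 1.08 (SE 0.43) and an edgeR adjusted p of 0.134. Its unadjusted p of 0.0253 was the only one under 0.05 among the members, against 25.4% of all genes. Between these groups 4 members were lower in the Irf1 set, and 49.5% of all genes. With the T and NK cell marker sum as a covariate the Oasl2 difference was 1.74 and the edgeR adjusted p 0.0135. It was the only call of an OAS gene under any setting tried. That sum did not overlap between these groups, at 90.7 to 283 CPM in Irf1-deleted and 301 to 692 CPM in Ikbkb-deleted libraries. Covariate and group therefore cannot be fully told apart in it. Groups overlapped for all 6 genes in both comparisons, while 17.5% and 17.9% of all genes had no overlap.

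Ratios between members, which cancel what moves both genes alike, were also set side by side. They were chosen after the values were seen and are given as a description, with no test. The CPM ratio of Oasl2 to Oas1a in the same library was 1.56, 1.44, 1.14 and 1.24 in Ikbkb controls, against 1.04, 0.854, 0.651 and 1.52 in the libraries labelled Ikbkb-deleted. It was 2.97, 2.87, 3.48 and 2.05 in Irf1 controls, against 3.44, 2.85, 3.72 and 2.50 in the libraries labelled Irf1-deleted. All 8 libraries of the Irf1 set were therefore above all 8 of the Ikbkb set, with medians of 2.92 and 1.19. The mean log2 ratio of Oas1a to Oasl2 was -1.55 ± 0.28 (SD, n = 8) in the Irf1 set and -0.19 ± 0.44 in the Ikbkb set, a difference of -1.37. With any 1 library left out the difference was -1.44 to -1.25. Of all 16040 genes, 1.57% had a ratio to Oas1a without overlap between the sets, and so did 1 of the other 5 members, Oasl2.

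The ratio of Oas1g to Oasl2 did not overlap between sets either, with a log2 difference of -1.25. Oasl2 was relatively higher in the Irf1 set against Oas3 as well, with a log2 difference (Oas3 to Oasl2) of -1.24, but there the libraries of the sets overlapped. Among Oas1a, Oas1g, Oas3 and Oasl1 the log2 differences between sets lay between -0.12 and 0.02. Oas2 shifted further than Oasl2 against Oas1a, with a wider spread. The log2 difference of Oas1a to Oas2 was -2.76 (SD 0.89 in the Irf1 set and 2.28 in the Ikbkb set), and the sets overlapped. Medians of the CPM ratio of Oas2 to Oas1a were 0.293 in the Irf1 set and 0.0835 in the Ikbkb set. With control libraries alone the Oas1a to Oasl2 difference was -1.06, and with deleted libraries alone -1.67. The same log2 ratio differed by 0.46 with Ikbkb deletion and by -0.15 with Irf1 deletion.

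Other features moved with the sets too. The fibroblast and endothelial marker sum was 6357 to 12132 CPM in the Ikbkb set and 11578 to 31393 CPM in the Irf1 set. Of its 12 markers 8 were called higher in the Irf1 controls, against 1081 of all 16040 genes. The neutrophil marker sum did not overlap, at 179 to 357 and 381 to 952 CPM. Mmp9 had the highest median of its markers (321 CPM), and Retnlg was next (21.8 CPM). Ly6g was at 0 in 14 libraries and Cxcr2 in 8, so the sum mainly describes Mmp9. The T and NK cell sum was 301 to 2288 CPM in the Ikbkb set and 68.3 to 882 CPM in the Irf1 set. Their part in the ratios between OAS genes was not tested.

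**Figure D3:**
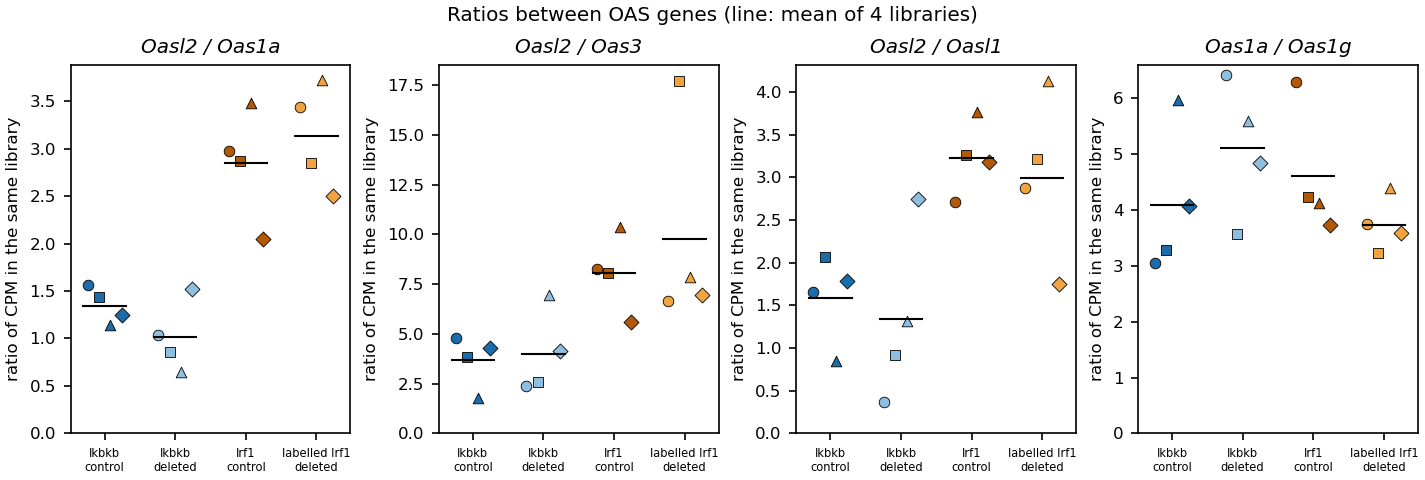
Each panel plots the ratio of CPM of 2 OAS genes in the same library (linear axis) by genotype group, with a line at the mean of 4 libraries and symbols for the replicate number as in the plot of levels. Oasl2 to Oas1a shows no overlap between the Ikbkb set (0.651 to 1.56) and the Irf1 set (2.05 to 3.72), and Oas1a to Oas1g overlaps in all 4 groups.

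Over the 16 libraries the OAS genes rose and fell together. Pearson's r of log2 CPM was 0.43 to 0.92 over the 15 pairs and Spearman's rho 0.48 to 0.92, and 14 pairs passed a permutation test after adjustment over the pairs. Oasl1 with Oasl2 was the pair that did not, with r = 0.43 and an adjusted permutation p of 0.0942. The closest pairs were Oas1a with Oas1g (r = 0.92, rho = 0.92), which share sequence, and Oas2 with Oasl2 (r = 0.89, rho = 0.90), which do not. Within the Ikbkb set r was 0.55 to 0.93 and within the Irf1 set 0.65 to 0.94, and 13 and 14 pairs passed. A further check left out, for each pair, the 2 libraries farthest from the median of its first-named gene. These libraries could differ between pairs. Then r was 0.38 to 0.91 and 4 pairs passed: Oas1a with Oas1g, Oas1a with Oas3, Oas1g with Oas3, and Oas2 with Oasl2. The other 10 pairs that had passed over 16 libraries then had r of 0.38 to 0.61. By rank over all 16 libraries the same 14 pairs passed, with rho of 0.57 to 0.92.

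The 6 genes outside the family whose levels were most like the family mean, among 9641 genes whose log2 CPM averaged 3 or more, were Igtp, Xaf1, Irf7, Ifit1, Isg15 and Irgm1. The likeness is the SD over 16 libraries of the log2 difference from the mean of the 6 OAS genes. It was 0.39 for Igtp, a GTPase induced by interferon-gamma, 0.44 for Xaf1 and 0.46 for Irf7, the interferon regulatory factor whose translation Oasl1 represses. Values for Ifit1, Isg15 and Irgm1 were 0.47, 0.48 and 0.51, and the median over all compared genes was 1.14. Of the OAS genes themselves, which are part of that mean, Oas3 was closest to it at 0.48 and Oasl1 farthest at 0.66 among the 5 above the same level, while Oas2 was below it.

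The OAS genes also moved with the RNA of T and NK cells, which are not cDC1s. The summed CPM of 18 T and NK cell markers was 387 to 2288 in the Ikbkb controls and 301 to 692 in the libraries labelled Ikbkb-deleted. Irf1 controls held 68.3 to 882, against 90.7 to 283 in libraries labelled Irf1-deleted. Of the 18 markers, 13 were above 0 in every library, and Gzma, Prf1, Ncr1, Klrb1c and Ifng were at 0 in 1 to 3 libraries. Against this sum Oas1a had r = 0.89 and rho = 0.80, Oas1g r = 0.79 and rho = 0.75, Oas3 r = 0.75 and rho = 0.74, and Oasl1 r = 0.71 and rho = 0.59. These 4 genes passed a permutation test adjusted over 54 relations (6 genes by 9 marker lists). Oas2 (r = 0.21, rho = 0.35) and Oasl2 (r = 0.25, rho = 0.21) did not.

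Within the sets r with the T and NK cell sum was 0.70 to 0.93 over the 6 OAS genes in the Ikbkb set and 0.76 to 0.93 in the Irf1 set. Only Oas1a passed in each set of 8 libraries, with adjusted exact permutation p-values of 0.0268 and 0.0375. Without the 2 libraries farthest from the median of that sum, Oas1a kept r = 0.80 and passed, with an adjusted permutation p of 0.0240. Oas1g (r = 0.65), Oas3 (r = 0.58) and Oasl1 (r = 0.48) then no longer passed. By rank over all 16 libraries Oas1g and Oas3 passed, each with an adjusted permutation p of 0.0143, and Oasl1 did not (0.143). Ikbkb control replicate 3, the highest library for 5 OAS genes, had the highest T and NK cell sum at 2288 CPM and a cDC1 sum of 8312 CPM. The library labelled Ikbkb-deleted replicate 1 had a like cDC1 sum of 8505 CPM but a T and NK cell sum of 348 CPM, with 33.4 CPM of Oas1a, 34.7 CPM of Oasl2 and 94.6 CPM of Oasl1.

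With the T and NK cell sum as a covariate in edgeR, the log2 fold changes with Ikbkb deletion were -0.21 for Oas1a, -0.43 for Oas1g, -0.97 for Oas2, -0.47 for Oas3, 0.027 for Oasl1 and -0.71 for Oasl2. With Irf1 deletion they were -0.15 for Oas1a, 0.16 for Oas1g, -0.82 for Oas2, -0.07 for Oas3, 0.14 for Oasl1 and -0.11 for Oasl2. No OAS gene was called in either deletion.

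The cDC1 marker sum passed the test with Oasl1 alone (r = 0.71, rho = 0.59, adjusted permutation p 0.0211). Without the 2 farthest libraries, which were those with the sums of 8312 and 8505 CPM, r was 0.33 and the test was not passed. For the other 5 OAS genes r with the cDC1 sum was -0.01 to 0.51. The plasmacytoid DC list passed with Oas2 (r = 0.77, rho = 0.83) and Oasl2 (r = 0.85, rho = 0.89). Both also passed without the 2 libraries farthest from the median of its own sum (r = 0.73 and 0.81). That list holds Bst2, however, itself an interferon-stimulated gene. With Bst2 and Ccl5 left out of the lists, r was 0.42 for Oas2 and 0.51 for Oasl2. T and NK cell markers without Ccl5 gave r = 0.90 for Oas1a. Only Bst2 and Ccl5 were left out. The T and NK cell list still held Ifng and the cDC1 list Ifi205, Irf8 and Tlr3, whose part in these relations was not tested. B cell and cDC2 markers each passed with 1 member, and macrophage, neutrophil, melanoma, and fibroblast and endothelial markers with none.

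**Figure D4:**
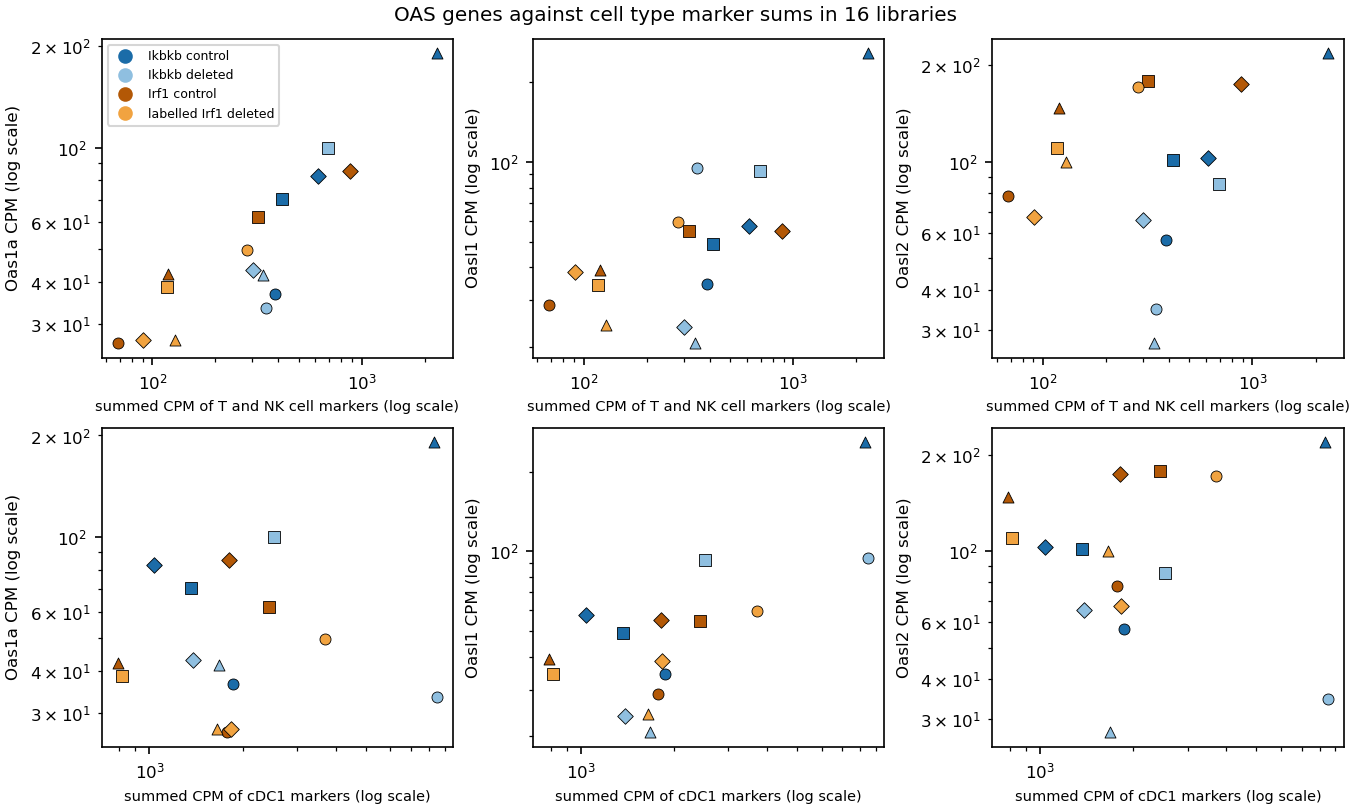
Points give the CPM of Oas1a, Oasl1 or Oasl2 (log axis) against the summed CPM of T and NK cell markers (upper panels) or cDC1 markers (lower panels), both log axes, in 16 libraries. Colours give the genotype group and symbols the replicate number as in the plot of levels. Oas1a follows the T and NK cell sum (r = 0.89). Oasl2 has r = 0.25 with that sum over both sets, but 0.82 within the Ikbkb set and 0.81 within the Irf1 set.

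The other genes of the Oas1 cluster contributed little RNA. Oas1b, a flavivirus resistance gene that is annotated as a polymorphic pseudogene, measured 0.722 ± 1.41 CPM in the libraries labelled Ikbkb-deleted and 5.97 ± 1.60 CPM in the Irf1 controls, the lowest and highest of its group means. Oas1c measured 1.71 ± 0.583 to 2.91 ± 4.43 CPM. Neither was called in any comparison. Oas1d had counts in 1 library and Oas1h in 1 library, at 2.94 and 0.125 CPM, and neither passed the filter.

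Abce1, Pde12 and Akap7, listed for the later steps of the pathway, were not called in any of the 6 comparisons. Abce1, which encodes a ribosome recycling factor, had log2 fold changes of 0.41 with Ikbkb deletion and 0.05 with Irf1 deletion. Pde12 and Akap7, which encode enzymes able to degrade 2-5A, had 0.30 and 0.27, and -0.12 and -0.29.

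Upstream of the family, 12 genes of type I interferon signalling held 10 negative values in each deletion, with medians of -0.33 and -0.14, and none was called. Of all genes tested 52.2% had a negative value with Ikbkb deletion and 51.7% with Irf1 deletion. Irf9, a subunit of the ISRE-binding complex, had a log2 fold change of -0.76 with Ikbkb deletion and -0.07 with Irf1 deletion. Irf7 had -1.13 and -0.37, Usp18, which encodes an inhibitor of the interferon receptor, -0.94 and -0.13, and Stat2 -0.45 and -0.85. Ikbkb control replicate 3 held 1034 CPM of Irf7, against 140 to 253 CPM in the other Ikbkb controls. For Irf9 it held 288 CPM against 76.4 to 134 CPM, and for Stat2 139 CPM against 28.9 to 75.4 CPM. How far the values with Ikbkb deletion rest on that library was not tested for these genes. Jak1, named after its values were seen, was the only gene of this list called between the sets, at 0.83 between the controls and 0.89 between the deleted groups. Of all genes 12.6% and 8.58% were called in those comparisons. Interferon genes themselves were barely detected: Ifnb1 was at most 0.690 CPM, and Ifna4 and Ifnk had counts in 1 library each. Ifng ranged from 1.73 to 24.0 CPM in the Ikbkb controls, and was at 0 in 3 of the 4 libraries labelled Irf1-deleted, with log2 fold changes of -2.03 and -3.19, neither called.

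Lists of genes with the same inducer or ligand as the family also held mostly negative values. Of 20 other interferon-stimulated genes, 20 had lower fitted levels with Ikbkb deletion and 19 with Irf1 deletion, with medians of -0.71 and -0.55, and none was called by edgeR. Over all genes tested 52.2% and 51.7% of the values were negative. The genes of a list share libraries with each other and with the OAS genes, so a common sign is not a set of separate observations. With Ikbkb deletion Ifit3b had -1.59 (SE 0.43), Ifit3 -1.55 (SE 0.46) and Ifit1 -1.27 (SE 0.44), each a member of the family of proteins that bind foreign RNA ends. Of 8 double-stranded RNA sensors and their partners, 6 and 7 had lower values, with medians of -0.40 and -0.29. Ddx58, which encodes the sensor RIG-I, had -0.85 (SE 0.24) and -0.73 (SE 0.23). It was the only gene of that list called between the sets, where 12.6% and 8.58% of all genes were called. Ddx58 was higher in the Irf1 set by 0.91 between controls and 1.04 between deleted groups. Oasl2 was higher there by 0.27 and 1.08 without passing the test.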

How the data were processed

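Per the labels' protocols, SMART-Seq v4 amplified 1000 pg of RNA per library over 12 cycles, before Nextera XT. The authors deposited raw counts of reads per Ensembl gene. HTSeq 0.6.1p1, STAR 2.5.3a, cutadapt 1.10, bcl2fastq 2.17.1.14 and build mm10 are named in the submitters' processing notes. Symbols and coordinates came from GENCODE M21. Counting error falls with depth, and reads carried no molecular identifier, so copies made by PCR count more than once.

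The tests used edgeR 4.0.16 (R 4.3.3): filterByExpr (minimum count 10, minimum total 15), TMM scaling and 1 quasi-likelihood fit of 16 libraries with a mean per group, adjusted by Benjamini-Hochberg over 16040 genes. Log2 CPM used a prior count of 2. The fit was also run on simulated counts. Their spread between libraries was set below the common spread fitted here, so that run does not show power in these data. Correlations used 100000 resamples over 16 libraries and exact pairings over 8. Alternatives were DESeq2 1.42.0, limma 3.58.1 voom, other scalings and filters, marker covariates, Oas1a and Oas1g summed, each set alone, and leaving out each library.

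The members and all gene lists were chosen with earlier results of these data known. The text names all members, the measured genes of the Oas1 and 2-5A lists (1 of which is not reported here), the targeted genes, from other lists those with the smallest p in a deletion, and the 6 genes most like the family.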

Additional observations from a re-analysis of the deposited data

Results flagged for a closer look

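In 5 of the 24 sets of 4 libraries (6 genes in 4 groups) a single library lay far from the other 3. Its gap was beyond Dixon's 95% critical value for the gap over the whole range. For normally distributed values chance exceeds that value in about 1 in 20 groups. The gap was taken on linear CPM and the 6 genes share libraries, so that rate need not hold for these 24 sets.

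In the libraries labelled Ikbkb-deleted, replicate 2 was far above the rest for Oas1a (99.9 CPM against 33.4 to 43.3), Oas1g (27.9 CPM against 5.20 to 8.92) and Oas2 (14.1 CPM against 0 to 1.74). That library also had the highest T and NK cell marker sum of its group, 692 CPM against 301 to 348. Beyond the correlations and covariate fits given above, the part of those cells in the OAS levels was not tested.

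In the Ikbkb controls, replicate 3 was far above the rest for Oas3 (121 CPM against 11.9 to 26.5) and Oasl1 (258 CPM against 34.5 to 57.5). Its T and NK cell marker sum was 2288 CPM against 387 to 615, and its cDC1 sum 8312 CPM against 1036 to 1864.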

How the results depend on the processing

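No OAS gene was called under any other scaling, filter, tool or left-out library, with the exception given below. Other settings changed counts over all genes more. DESeq2 called 38 genes with Ikbkb deletion, 6 with Irf1 deletion, 25 for the mean of both and 12 for their difference, where edgeR called 0 each. Between controls and between deleted groups edgeR called 2018 and 1376 genes. There DESeq2 called 3146 and 2477, limma voom 4130 and 2990 and a fit without a filter on low counts 1199 and 718, and with a cDC1 marker covariate 2075 were called between deleted groups. limma voom also placed the median of all genes at 0.12 (log2) between controls.

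With the T and NK cell marker covariate 1 OAS gene, Oasl2, was called between deleted groups, whose T and NK cell marker sums did not overlap. That covariate reversed several values that were not called: to 0.027 for Oasl1 with Ikbkb deletion, 0.16 for Oas1g and 0.14 for Oasl1 with Irf1 deletion, 0.085 for Oasl1 in the mean of both, and 0.15 for Oas2 in the difference. It also reversed values between controls, to 0.25 for Oas1a, 0.10 for Oas1g, 0.45 for Oas3 and 0.28 for Oasl1, and between deleted groups, to 0.32 for Oas1a, 0.68 for Oas1g, 0.85 for Oas3 and 0.40 for Oasl1. The cDC1 covariate moved Oasl1 to 0.0013 between deleted groups, and limma voom gave 0.18 for Oas1g with Irf1 deletion and 0.16 for Oas2 in the difference. The cause was not tested.

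Leaving out 1 library at a time gave 0 to 1 genes called for Ikbkb deletion and for the difference, 782 to 2404 between controls and 110 to 1776 between deleted groups. Ranges that crossed 0 were -1.14 to 0.29 for Oasl1 with Ikbkb deletion, -0.71 to 0.0047 for Oas1g with Irf1 deletion and -0.66 to 0.055 for Oasl1 in the mean. In the difference they were -0.37 to 0.68 for Oas1a, -0.96 to 1.91 for Oas2, -0.18 to 1.53 for Oas3 and -0.46 to 0.97 for Oasl1, and between deleted groups -0.59 to 0.44 for Oas1g and -0.82 to 0.27 for Oas3.

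Likeness between OAS genes passed for 4 of 15 pairs without the 2 libraries farthest for the first-named gene, against 14. Relations to marker sums passed for 9 of 54 pairs, for 2 and 2 within the Ikbkb and Irf1 sets, and for 3 without the 2 libraries farthest in the marker sum. The marker lists without Bst2 and Ccl5 (6 of 54 pairs) and leaving libraries out of the ratios were chosen after seeing the data.

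No paired analysis was possible because replicate numbers follow the order of the record and pair no libraries. With 4 libraries a group and this spread, the 95% intervals of most OAS genes held changes of more than 2-fold. Oas2 had 0 counts in 1 library, which held 19266660 counts in all, while Oas1a had at least 545 in each library.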
